A study of Mus musculus with 2 samples.

Results

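Erythropoietin receptor signalling in a red cell progenitor rests on few proteins, and 8 of their genes were examined for accessible chromatin. They were the receptor gene Epor, the 4 Janus kinase genes Jak1, Jak2, Jak3 and Tyk2, the Src family kinase gene Lyn, and the inhibitor genes Sh2b3 and Ptpn6. These genes were chosen by name from a total of 21938 protein-coding genes, and placed on the mouse genome (mm10, which is GRCm38) with the GENCODE M21 annotation. Every accessible region in a gene body or within 50 kb of it was taken.

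Accessible chromatin was mapped in G1E cells by ATAC-seq, an assay that uses the transposase Tn5 to tag the DNA it can reach. G1E is a mouse line that the labels call a Gata1- erythroid progenitor, with C57BL/6J as the strain, male as the sex and an age of 0 days after birth. There was 1 group of 2 biological replicates with 50000 cells each, both from this line and donor, both without Gata1 and with no treatment named. Nothing was therefore compared between conditions, no test was run, and the labels do not say whether the replicates came from separate cultures.

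Erythropoietin binds its receptor on the cell surface and brings together the JAK2 molecules attached to the receptor chains, which then phosphorylate each other, the receptor and the transcription factor STAT5. Erythroid progenitors need EPOR and JAK2 to survive and mature, while JAK1, JAK3 and TYK2 serve other cytokine receptors. LYN also acts at the activated receptor, and SH2B3 (also called LNK) and the phosphatase PTPN6 (also called SHP-1) restrain its signal.

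The authors' lists, cut at an irreproducible discovery rate (IDR) of 0.05, gave 21194 accessible regions in replicate 1 and 22620 in replicate 2 after overlapping peaks were merged, and 17425 joined regions held both. Each region has the signal value of the authors' strongest peak in it, and values are given below as the signal and as its percentile, which is the share of regions in the same replicate's list with a lower signal. Pairs of values in parentheses are the signals in replicates 1 and 2 unless they are called percentiles. A region called in both replicates overlaps between them by at least 1 bp. Over all regions in both, the percentiles of the replicates differed by a median of 8.77 points, and by up to 33.0 points in 95% of them. The lists hold no read totals, so the depth is unknown, and a missing region is not evidence of closed chromatin. Of 12 erythroid progenitor marker genes, 11 had a region at a start site in both replicates, all but Gata2. None of 8 granulocyte and macrophage, 8 lymphoid, 6 fibroblast and 6 neuron markers had such a region, though Col1a1 had a region in replicate 2.

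In total, 58 joined regions lay in or within 50 kb of the 8 genes. They came from 46 regions of replicate 1 and 51 of replicate 2, counted before joining, and a joined region can hold several regions of a replicate. Both replicates held 38 of them. Of these 38, 7 lay within 1000 bp of a start site of the gene itself, 14 lay at start sites of other coding genes nearby, and 17 were distal, meaning over 1000 bp from any annotated start. A promoter region in both replicates was present for 6 of the 8 genes, against 38.7% of all protein-coding genes. The 6 were Epor, Jak1, Tyk2, Lyn, Sh2b3 and Ptpn6, and Jak2 and Jak3 had none in either replicate. The 38.7% was not matched for CpG content at the start, with which the share varied widely, as given with Jak2 below. The map of regions along each gene shows these classes with both replicates' percentiles.

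**Figure D1:**
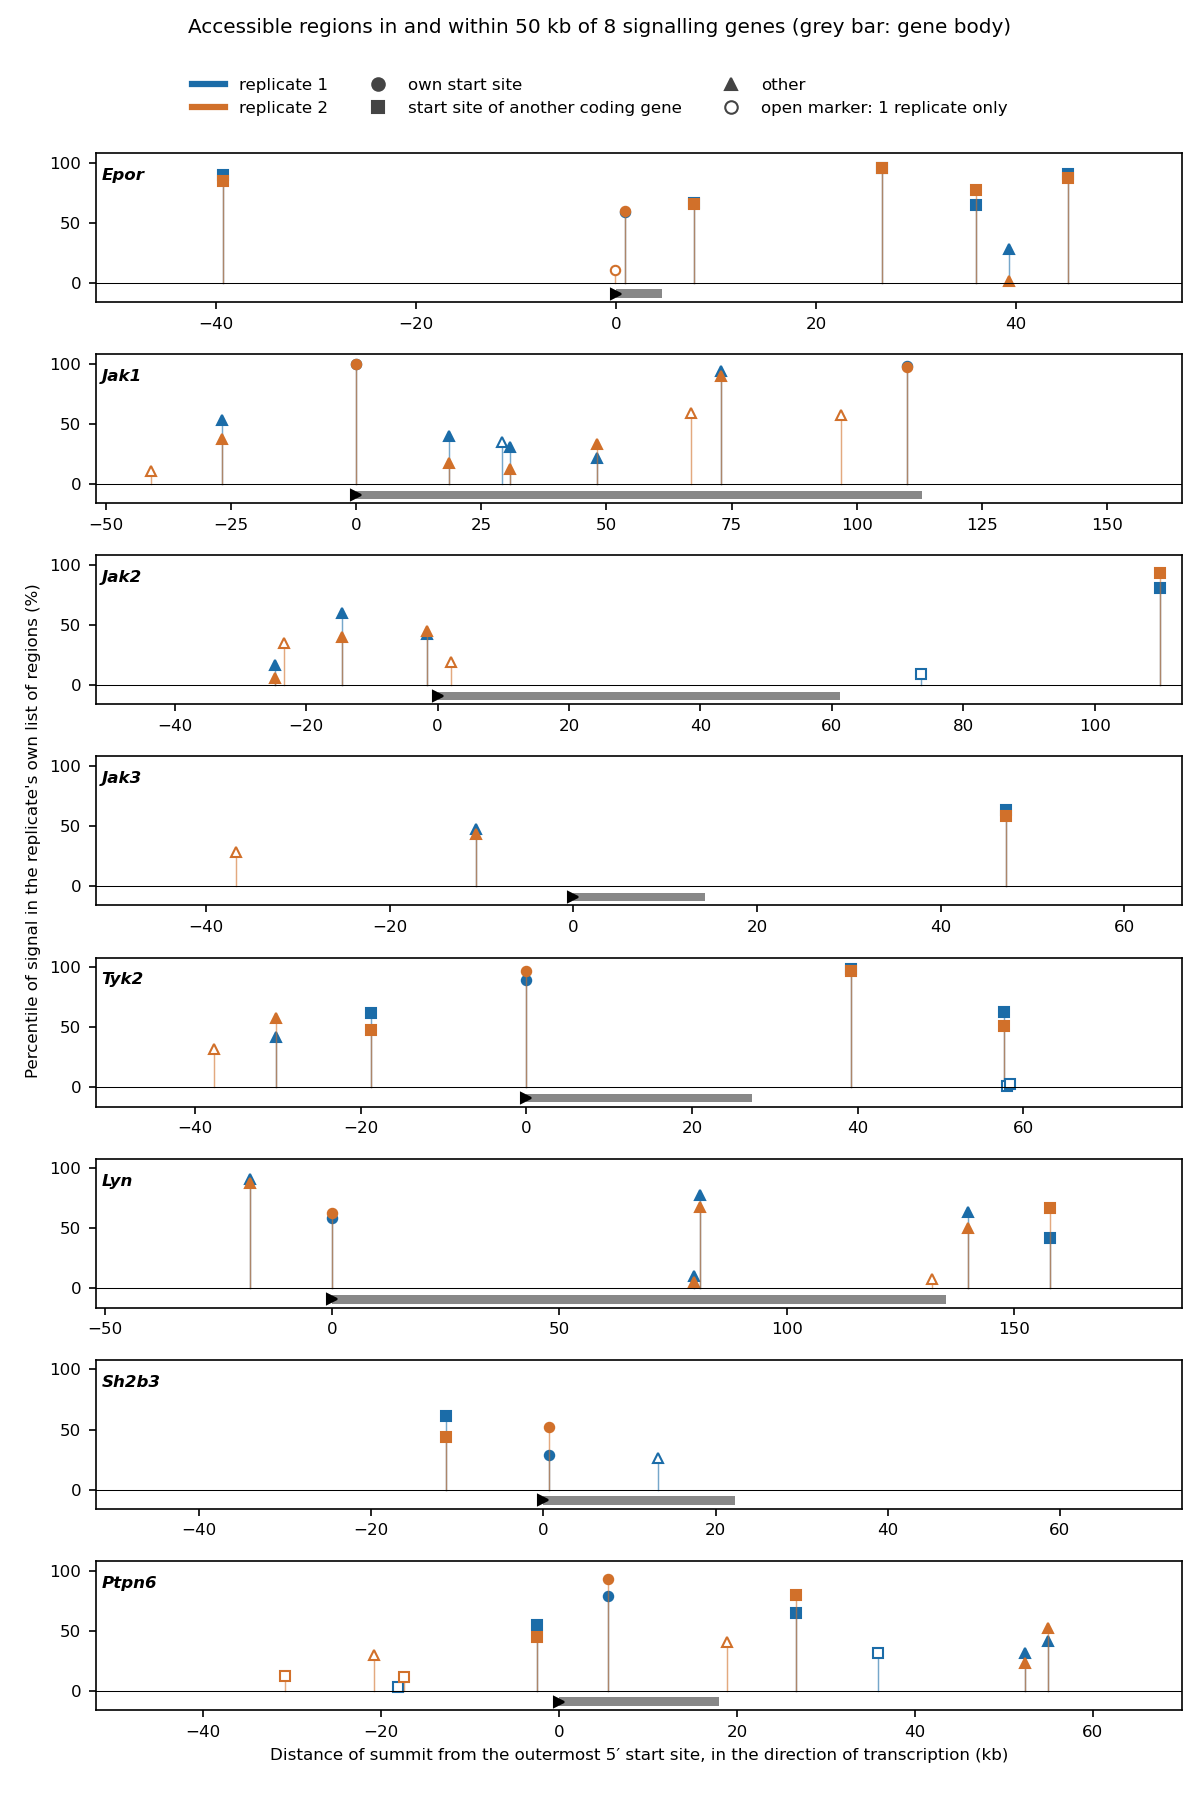
Accessible regions in and within 50 kb of the 8 genes. The x axis is the distance in kb of each summit from the gene's outermost start site, the y axis the percentile of signal in the replicate's own list, and grey bars are gene bodies. Filled markers are the 38 regions in both replicates and open markers the 20 in 1 replicate. Jak2 and Jak3 have no circle, the marker of a region at the gene's own start site.

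Epor (chr9:21958897-21963506, minus strand) is a compact gene of 4.61 kb with 2 annotated start sites. The region in both replicates, chr9:21962302-21962884, lay in intron 1, and its summit was 938 bp inside the outermost start and 4 bp from the downstream start of a shorter coding transcript. It had a signal of 9.02 in replicate 1 and 10 in replicate 2, at the 58.5 and 59.8 percentiles. The outermost start, the one of the longer receptor transcript, had a separate and weaker region, chr9:21963484-21963896, with its summit 128 bp upstream. Only replicate 2 held it in the thresholded lists, with a signal of 5.46 (10.9 percentile). In replicate 1 it was in the authors' more lenient list, with a signal of 5.06. The IDR of this region was 0.0383 in replicate 2 and 0.0902 in replicate 1, on either side of the 0.05 threshold. The authors' conservative list on both replicates together also held it, with a signal of 5.82. The mouse Epor promoter is known for a GATA factor site and an SP1 site close to its start. The window around the upstream summit (chr9:21963534-21963734) held 1 GATA and 1 SP1 match, and the window around the intronic summit (chr9:21962535-21962668) 1 SP1 match and no GATA match. Matches of motifs not named beside a window, such as 4 KLF matches in the upstream one, stay in lower case. Sequences are printed 5′ to 3′ on the gene's strand, in lower case with these matches in capitals, here and below also where the strand shown carries the reverse complement:
Epor upstream start: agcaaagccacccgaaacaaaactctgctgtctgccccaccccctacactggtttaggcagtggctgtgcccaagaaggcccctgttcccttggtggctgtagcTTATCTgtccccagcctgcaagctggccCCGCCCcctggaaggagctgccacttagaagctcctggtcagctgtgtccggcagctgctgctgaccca
Epor downstream start: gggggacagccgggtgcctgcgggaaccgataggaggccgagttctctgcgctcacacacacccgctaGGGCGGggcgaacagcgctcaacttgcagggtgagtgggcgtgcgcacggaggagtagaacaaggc

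The other regions around Epor belonged mostly to its neighbours. Both replicates held regions at the start sites of Rab3d (14.2 and 14.6), of Ccdc159 and Tmem205 (9.73 and 12.6), of Plppr2 (15.9 and 17.5), of Swsap1 (9.94 and 10.7) and of Ccdc151 and Prkcsh (13.9 and 14.0). In both replicates the Plppr2 region, 26.6 kb downstream, was the strongest of the locus, at the 95.3 and 95.6 percentiles. A single distal region lay in Tmem205, 39.3 kb downstream. Its signal was 6.29 in replicate 1 (28.2 percentile) and 3.97 in replicate 2 (1.58 percentile), so it was close to the bottom of the list of replicate 2. No distal region in both replicates lay inside Epor or between it and the Swsap1 region, whose summit was 7.82 kb downstream of the outermost Epor start. By definition, the parts of this stretch within 1000 bp of a start could not hold a distal region.

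Jak1 (chr4:101152367-101265282, minus strand) had the strongest promoter region of the 8 genes. The JAK1 kinase works with interferon and many interleukin receptors. Its promoter region, chr4:101265164-101265517, had its summit 69 bp upstream of the outermost start and a signal of 19.4 in replicate 1 and 22.3 in replicate 2. These values lay at the 99.5 and 99.7 percentiles of all regions. The window at its summit (chr4:101265253-101265451, minus strand) held 1 match each of CRE, NFY and SP1, in capitals:
Jak1 promoter: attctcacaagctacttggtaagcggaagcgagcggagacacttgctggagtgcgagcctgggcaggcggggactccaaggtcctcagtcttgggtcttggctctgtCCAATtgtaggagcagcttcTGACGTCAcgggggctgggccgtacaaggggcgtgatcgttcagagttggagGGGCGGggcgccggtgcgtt

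A pair of further Jak1 regions came close to the promoter in strength, and both were inside the gene. In intron 22 of the longest coding transcript, 109.5 kb downstream, chr4:101155468-101156116 had signals of 18.0 and 18.3 (98.5 and 97.0 percentiles). It counted as a promoter region only because a noncoding processed transcript of Jak1 starts 656 bp from its summit, and its ratio of observed to expected CpG, 0.09 within 100 bp of the summit, was far under the 0.794 of the main promoter. In intron 2, 72.8 kb downstream, chr4:101192116-101192979 had signals of 15.2 and 15.4 (93.7 and 90.0 percentiles). Both windows held a TAL1-GATA composite, the joined partial E-box and GATA site of erythroid TAL1 complexes, written here as CTG, then 7 or 8 bases, then AGATAA or TGATAA. The intron 2 window held a further GATA match. Capitals mark composites and GATA matches in chr4:101155675-101155875 and chr4:101192392-101192592, minus strand:
Jak1 intron 22: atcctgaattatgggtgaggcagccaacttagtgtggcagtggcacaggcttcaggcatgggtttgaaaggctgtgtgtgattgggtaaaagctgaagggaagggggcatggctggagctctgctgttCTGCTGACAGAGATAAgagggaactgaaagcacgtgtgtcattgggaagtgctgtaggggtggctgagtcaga
Jak1 intron 2: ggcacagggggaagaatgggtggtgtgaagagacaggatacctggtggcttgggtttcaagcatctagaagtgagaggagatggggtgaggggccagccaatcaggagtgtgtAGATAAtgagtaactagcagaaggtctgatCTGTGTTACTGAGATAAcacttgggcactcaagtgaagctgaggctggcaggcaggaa

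The remaining Jak1 regions in both replicates were weaker. In intron 1, regions lay 18.6 kb (7.23 and 6.07), 30.8 kb (6.52 and 5.59) and 48.1 kb (5.85 and 7.32) downstream of the outermost start, all at or under the 39.8 percentile. Upstream, a region 26.9 kb away had signals of 8.45 and 7.63. This upstream region was rich in CpG, with an observed to expected ratio of 0.973 within 100 bp of the summit, although no annotated start lay within 1000 bp of it. A further 4 regions were in 1 replicate only. With 5 distal regions in both replicates, Jak1 had the most of the 8 genes, and also a long window, since its body spans 113 kb.

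Jak2 (chr19:29251828-29313080, plus strand), which encodes the kinase that the erythropoietin receptor itself uses, had no promoter region in the thresholded, lenient or ranked list of either replicate. Of all the lists examined, 1 held a region there, the authors' list of peaks replicated over both samples together. That region, chr19:29251551-29251836, had its summit 79 bp upstream of the start and a signal of 3.48, at the 7.21 percentile of that list. The start lies in CpG-rich sequence, with an observed to expected CpG ratio of 0.897 within 500 bp and 76.8% G and C. Of the protein-coding genes in the same bin when all were ordered by this ratio into 10 bins, 67.6% had such a region in both replicates. Over the bins the share ran from 3.83% to 69.1%. For the genes with a promoter region, the share in their bin was 18.0% for Epor and Ptpn6. It was 51.6% for Tyk2 and Sh2b3 and 64.3% for Jak1 and Lyn.

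The nearest region in both replicates was chr19:29249813-29250347, whose edge lay 1481 bp upstream of the Jak2 start. Its signal was 7.46 in replicate 1 and 8.39 in replicate 2 (42.8 and 45.0 percentiles), and its window held 2 GATA matches. Further upstream, a region at 14.5 kb had signals of 9.20 and 7.92, and a weak region at 24.7 kb had 5.53 and 4.88. Replicate 2 alone held a region in intron 2, 2.10 kb downstream of the start (6.18). The only promoter region in both replicates within 50 kb was that of the neighbour Plgrkt, 110.1 kb from the Jak2 start (12.1 and 16.6). The sequence at the Jak2 start (chr19:29251678-29251857) and the window of the upstream region (chr19:29250099-29250299) are shown because they differ in kind. The former carries 2 SP1 matches and the latter 2 GATA matches, in capitals:
Jak2 start, no thresholded region: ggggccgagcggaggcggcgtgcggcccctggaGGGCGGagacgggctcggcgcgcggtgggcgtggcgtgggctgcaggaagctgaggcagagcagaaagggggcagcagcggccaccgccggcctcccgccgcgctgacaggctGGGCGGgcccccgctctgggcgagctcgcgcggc
Jak2 upstream region: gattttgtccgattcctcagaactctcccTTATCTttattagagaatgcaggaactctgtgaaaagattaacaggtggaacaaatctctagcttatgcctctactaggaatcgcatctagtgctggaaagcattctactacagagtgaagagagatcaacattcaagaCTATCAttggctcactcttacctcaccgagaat

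Jak3 (chr8:71676296-71690575, plus strand) encodes the kinase that works with the common gamma chain of lymphoid cytokine receptors. It had no promoter region in the thresholded or lenient list of either replicate. The ranked list of replicate 1, which keeps peaks of low reproducibility, held chr8:71676280-71676479 with a signal of 3.16 and an IDR of 0.372, far from the 0.05 threshold, and that of replicate 2 held none. The authors' replicated list held chr8:71676332-71676627 with a signal of 3.59 (8.08 percentile). The CpG ratio at the Jak3 start was 0.556, in a bin in which 51.6% of genes had such a region in both. No region in both replicates lay within the gene body. The nearest, 10.6 kb upstream within the gene Unc13a, was chr8:71665341-71666028, with signals of 7.96 and 8.20 (47.9 and 43.2 percentiles). The other was at the start of Fcho1 (9.63 and 9.84). The upstream window (chr8:71665625-71665825) held 6 KLF matches, in capitals and partly run together, the most of any region in both replicates here, while the Jak3 start itself (chr8:71676146-71676325) held 1 SP1 match:
Jak3 upstream region: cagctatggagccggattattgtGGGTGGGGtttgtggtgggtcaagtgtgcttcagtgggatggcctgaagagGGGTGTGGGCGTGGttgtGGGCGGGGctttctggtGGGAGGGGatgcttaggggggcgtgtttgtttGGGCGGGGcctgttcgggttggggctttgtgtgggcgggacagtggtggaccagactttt
Jak3 start, no thresholded region: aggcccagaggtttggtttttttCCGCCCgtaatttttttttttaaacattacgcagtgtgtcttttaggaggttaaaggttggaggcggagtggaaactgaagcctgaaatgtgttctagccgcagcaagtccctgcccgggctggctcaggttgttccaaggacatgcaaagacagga

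Tyk2 (chr9:21104068-21131243, minus strand), whose kinase serves interferon and interleukin-12 family receptors, lies 0.828 Mb from Epor on chromosome 9. Its promoter region, chr9:21131003-21131659, had its summit 80 bp upstream of the start. The signal was 13.9 in replicate 1 and 18.1 in replicate 2, at the 89.6 and 96.8 percentiles. Its window (chr9:21131223-21131423) held 2 NFY matches and no match of GATA, SP1 or KLF, which sets it apart in content from the promoter windows above:
Tyk2 promoter: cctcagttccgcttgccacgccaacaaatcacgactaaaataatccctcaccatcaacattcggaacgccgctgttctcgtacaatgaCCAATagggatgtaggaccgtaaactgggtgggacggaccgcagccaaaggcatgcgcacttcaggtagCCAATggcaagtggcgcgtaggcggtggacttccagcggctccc
The neighbours Raver1 and Gm38431 shared the strongest region of the locus (18.3 in each replicate). Regions at the starts of Cdc37 (9.42 and 8.67) and of Fdx1l and Gm49373 (9.49 and 9.05) were of middling rank. The only distal region in both replicates lay 30.3 kb upstream (7.41 and 9.79), and its window held an NRF1 match and no GATA match.

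Lyn (chr4:3678115-3813122, plus strand) encodes a Src family kinase that acts at the erythropoietin receptor and at other receptors of blood cells. Its promoter region, chr4:3677765-3678265, had its summit 28 bp upstream of the start and signals of 9.03 and 10.4 (58.6 and 63.1 percentiles). A distal region 18.0 kb upstream, chr4:3659658-3660400, was stronger than the promoter in both replicates, with signals of 14.4 and 14.9 (91.2 and 88.2 percentiles). Late in the gene, chr4:3758894-3759292 in intron 10 had signals of 11.6 and 11.1 (77.9 and 68.1 percentiles), also above the promoter in both replicates. Its summit lay 2614 bp past the start of a noncoding processed transcript of Lyn. The upstream window (chr4:3660027-3660227) held 3 GATA matches, 1 of them within a TAL1-GATA composite, and the intron 10 window (chr4:3758971-3759171) held 3 GATA matches, shown in capitals:
Lyn upstream region: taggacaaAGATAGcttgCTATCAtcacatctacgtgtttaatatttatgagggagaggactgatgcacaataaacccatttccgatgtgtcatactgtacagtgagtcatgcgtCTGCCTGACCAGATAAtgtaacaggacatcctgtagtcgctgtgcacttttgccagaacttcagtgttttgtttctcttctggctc
Lyn intron 10: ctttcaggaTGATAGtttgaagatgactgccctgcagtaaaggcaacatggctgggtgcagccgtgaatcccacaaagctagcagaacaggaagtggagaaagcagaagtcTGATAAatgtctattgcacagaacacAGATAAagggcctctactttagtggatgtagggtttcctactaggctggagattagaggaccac
The intron 9 region beside it was weak (5.01 and 4.79) and held 1 GATA match. A region 139.8 kb from the Lyn start, past the 3′ end of the gene, had signals of 9.62 and 8.91 and matched none of the 16 motifs searched. The promoter of the ribosomal protein gene Rps20, 157.7 kb from the Lyn start, had 7.42 and 11.0.

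Sh2b3 (chr5:121815488-121837646, minus strand) encodes an adaptor that binds JAK2 and limits cytokine signalling in progenitors. Its promoter region, chr5:121836749-121837409, was the weakest of the 6, with signals of 6.36 and 9.11. The replicates placed it at the 28.9 and 51.8 percentiles, a wider gap than the median gap of 8.77 points over all regions but within the 95% range. Its summit was 604 bp inside the outermost start and 183 bp upstream of the nearest start, where several Sh2b3 transcripts begin. No distal region was in both replicates, which was the case for none of the other 7 genes. Replicate 1 alone held an intron 3 region (6.23). The only other region in both replicates was the promoter of the neighbour Pheta1, 11.3 kb upstream (9.36 and 8.29). The promoter window (chr5:121836942-121837142) held 3 SP1 matches, in capitals:
Sh2b3 promoter: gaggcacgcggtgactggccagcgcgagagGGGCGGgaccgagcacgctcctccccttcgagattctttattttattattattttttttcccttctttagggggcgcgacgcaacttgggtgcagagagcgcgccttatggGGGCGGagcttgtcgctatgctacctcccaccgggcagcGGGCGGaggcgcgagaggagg

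Ptpn6 (chr6:124720707-124738714, minus strand) encodes a phosphatase that removes phosphate from activated receptor complexes in blood cells. In human the gene is known to have an upstream promoter used in epithelial cells and a downstream promoter used in blood cells. Both replicates held a region at the downstream starts only, chr6:124732733-124733450, 5.57 kb inside the outermost start and 9 bp from the nearest start. Its signal was 11.8 in replicate 1 and 16.5 in replicate 2 (79.2 and 93.3 percentiles). No thresholded, lenient or ranked list of either replicate held a region within 1000 bp of the outermost start. The window (chr6:124733125-124733245) held 1 SP1 match, in capitals, and the 100 bp to either side of the summit also held 3 KLF matches, which are not marked:
Ptpn6 downstream start: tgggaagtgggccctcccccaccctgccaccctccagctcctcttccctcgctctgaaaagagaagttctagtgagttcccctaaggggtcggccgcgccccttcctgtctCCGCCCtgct
Promoters of the neighbours Grcc10 (8.55 and 8.32) and of Emg1 and Phb2 (9.74 and 13.0) were in both replicates. The edge of the Grcc10 region lay 1588 bp upstream of the outermost Ptpn6 start. The 2 distal regions in both replicates lay in the neighbour Lpcat3, 52.4 kb (6.61 and 6.42) and 54.9 kb (7.37 and 9.20) from the outermost Ptpn6 start. Each held 1 GATA match, and the farther held the only STAT match among the 38 regions. A further 6 regions around Ptpn6 were in 1 replicate only.

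Ordered by the mean percentile of the strongest promoter region, Jak1 (99.6) came first, followed by Tyk2 (93.2), Ptpn6 (86.3), Lyn (60.9), Epor (59.2) and Sh2b3 (40.4). The ranges of the replicates overlapped between Tyk2 and Ptpn6 and between Lyn and Epor, so the order within these pairs is not settled by the data. The ranges of the other neighbours in the order did not overlap, but with 2 replicates this does not settle their order. The lowest Epor percentile was 58.5 and the highest of Sh2b3 51.8, beside a median gap between replicates of 8.77 points. The 8488 protein-coding genes with such a region in both had a median mean percentile of 72.7, with quartiles of 52.6 and 87.3. Jak1 and Tyk2 stood above the upper quartile and Sh2b3 below the lower. The receptor and Lyn lay in the lower part of the middle range, above 32.5% and 34.4% of those genes. With the outermost start alone as the promoter, 5 of the 8 genes kept a region, Ptpn6 dropping out, against 35.4% of all protein-coding genes. Epor was kept through its intronic region, which gave the 59.2 above and had its summit 938 bp inside the outermost start. The separate Epor region at the outermost start itself was in the thresholded list of replicate 2 only, at the 10.9 percentile.

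**Figure D2:**
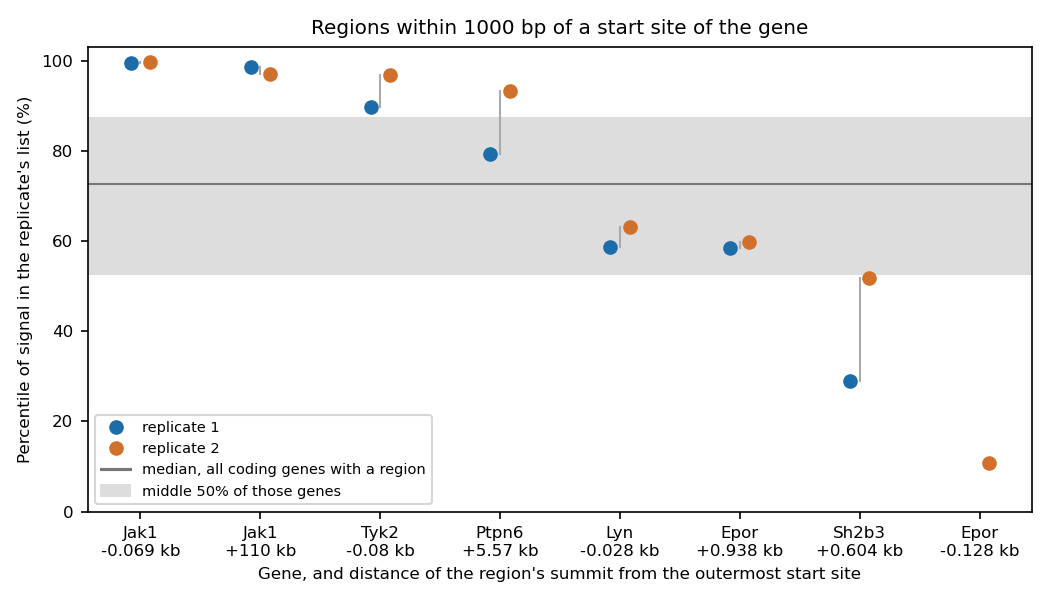
Percentile of signal (y axis) of each region within 1000 bp of a start site of the gene, for replicate 1 (blue) and replicate 2 (orange), with genes and summit positions on the x axis. The line is the median and the band the middle 50% of the 8488 coding genes with such a region in both replicates. The Jak1 points lie at or above 97.0 and the upstream Epor region, in replicate 2 only, at 10.9.

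The neighbourhoods of the 8 genes held between 1.64 (Sh2b3) and 6.69 (Epor) regions in both replicates per 100 kb of gene body and flanks, with a median of 2.92. Over all protein-coding genes the median was 1.20, with quartiles of 0 and 2.82, and all 8 genes lay above that median. Epor stood higher than 98.2% of genes, but 5 of its 7 regions were promoters of other genes. Counting distal regions alone changed the order. Jak1 had 2.35 distal regions per 100 kb, Jak2 1.86, Lyn 1.70 and Ptpn6 1.69, each higher than at least 88.8% of genes. Epor had 0.956, Jak3 0.875, Tyk2 0.786 and Sh2b3 0. At least 1 distal region in both replicates was present for 7 of the 8, against 38.8% of all protein-coding genes. That share was not matched for gene length, and a longer gene has a longer window to hold a region. The bodies of Lyn, Jak1 and Jak2 span 135, 113 and 61.3 kb. Jak2, with no promoter region, came second of the 8 by distal regions per 100 kb, but on only 3 regions and close to Lyn and Ptpn6. Among the 3 was the region with its edge 1481 bp from the Jak2 start, a promoter region with a window of 2000 bp. Another was weak, at the 16.8 and 5.66 percentiles.

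**Figure D3:**
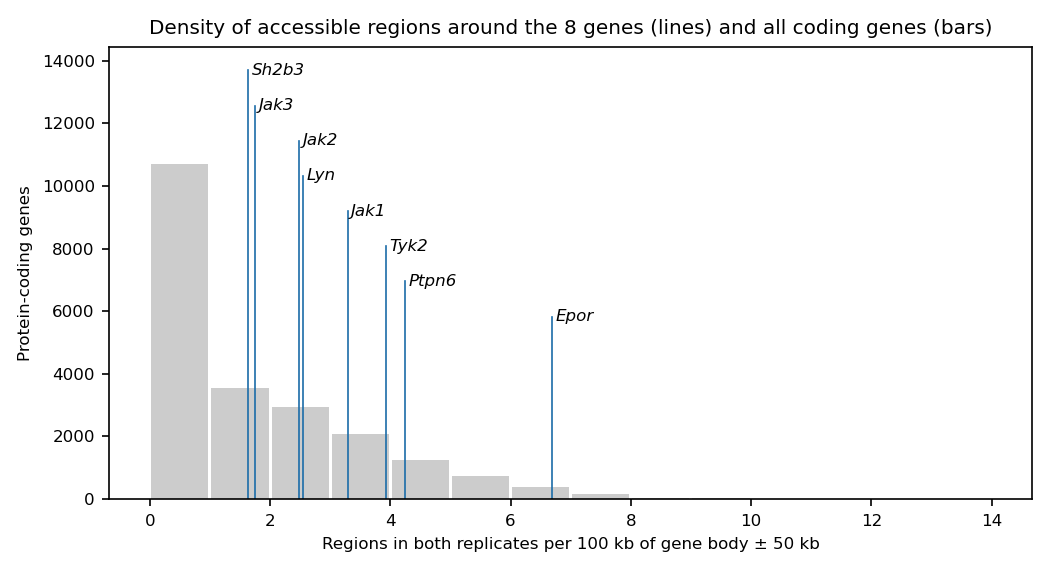
Number of regions in both replicates per 100 kb of gene body with 50 kb on either side (x axis). Bars give the number of protein-coding genes (y axis) and lines mark the 8 genes, from Sh2b3 at 1.64 to Epor at 6.69. Line heights only separate the labels.

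Motifs were exact matches on either strand within 100 bp of each summit, and a match is a description of sequence and not a bound site. GATA was searched as the letters GATA after A or T and before A or G. It occurred in 9 of the 17 distal regions in both replicates and in 2 of the 21 at start sites. Over all regions in both replicates, 69.0% of distal and 16.6% of promoter regions held it, so neither count can be read as a property of these genes. The distal regions with GATA matches were 2 at Jak1, 2 at Jak2, 3 at Lyn and 2 at Ptpn6, while those of Epor, Jak3 and Tyk2 held none. The composite occurred in 2 of the 17 distal regions, at Jak1 and Lyn, against 15.6% of all distal regions. It also lay in the intron 22 region of Jak1, 1 of the 21 start site regions, against 2.19% of all promoter regions.

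At start sites the commonest matches were those of KLF, SP1 and NFY, and a match does not tell which factor of a family could use it. KLF (CCNCNCCC) occurred in 16 of the 21 start site regions, SP1 (GGGCGG) in 13 and NFY (CCAAT) in 12, against 60.0%, 58.7% and 39.6% of all promoter regions. A KLF match can share bases with an SP1 match. ETS (CCGGAA) occurred in 3 of 21 against 27.7%, and in none of the 7 regions at the genes' own start sites. RUNX (TGTGGT) occurred in 2 of 17 distal regions against 24.2%, PU.1 (GAGGAAG) in 2 against 14.2%, the TAL1 E-box (CAGCTG) in 3 against 17.3% and AP-1 (TGANTCA) in 5 against 14.1%. STAT (TTCNNNGAA) occurred in 1 of 17 distal regions and 0 of 21 start site regions, against 7.56% and 4.78%. With so few regions, a difference of 1 or 2 matches moves each share widely. The remaining motifs were CRE (TGACGTCA), the MYC E-box (CACGTG), NRF1 (GCGCNTGCG) and the IRF and CTCF motifs. CTCF occurred in 2 start site regions, of Rab3d and Pheta1, and IRF in no region. CRE occurred in 1 start site region, the Jak1 promoter, against 3.54% of all promoter regions.

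**Figure D4:**
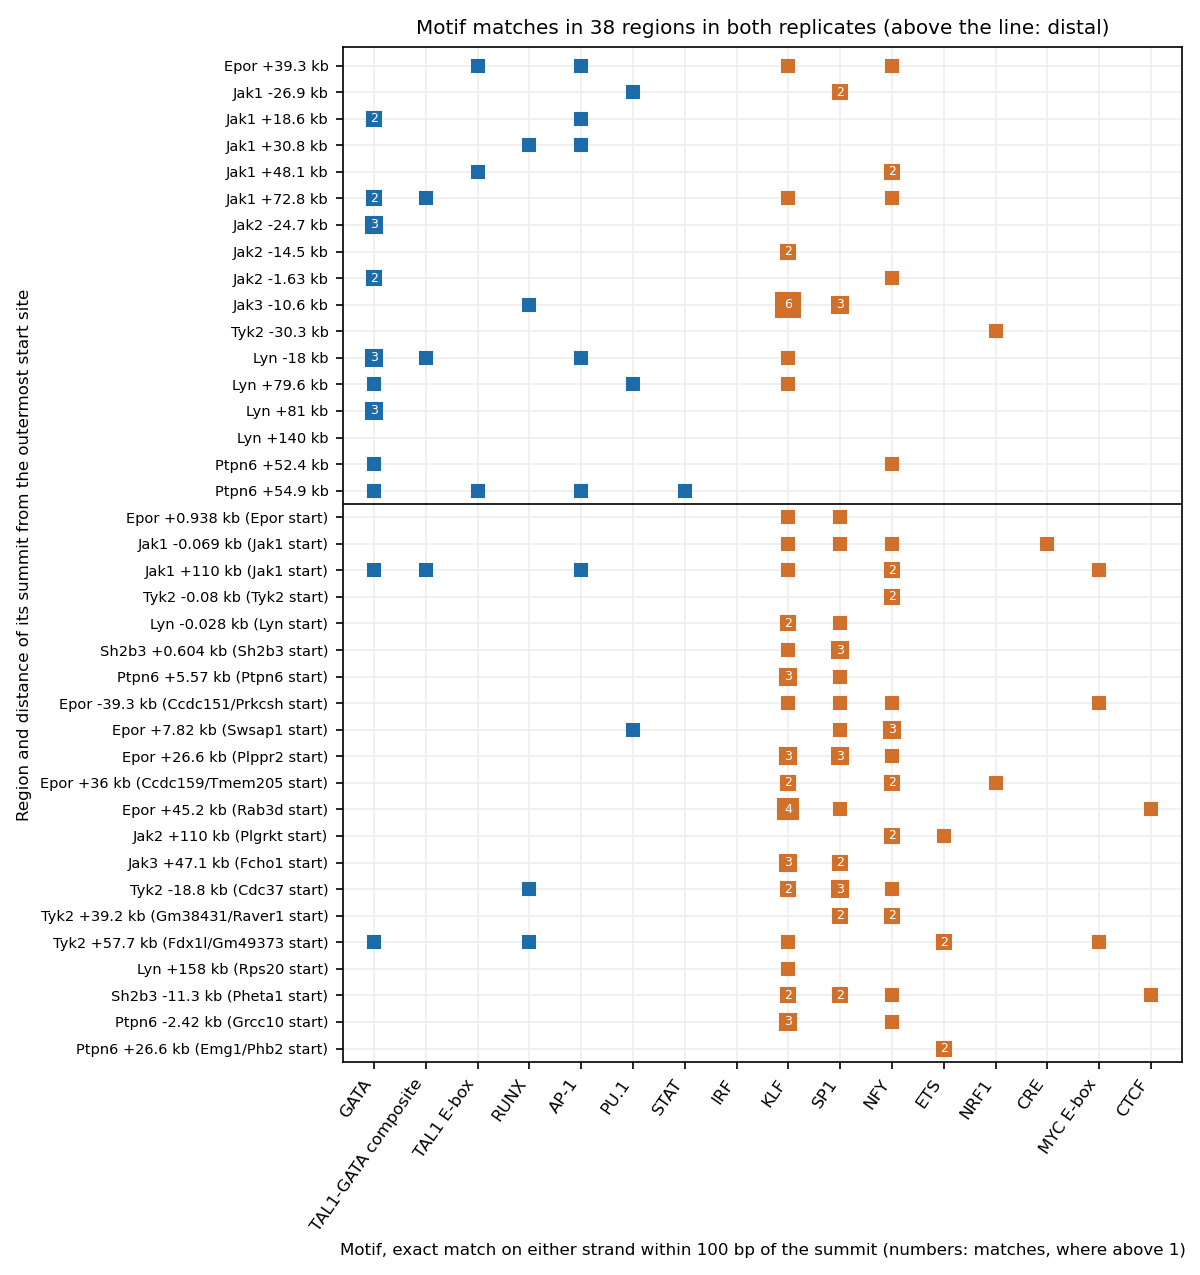
Motif matches (x axis) in the 38 regions in both replicates (y axis, named by gene and distance of the summit from the outermost start site), distal regions above the line. A square is at least 1 match and a number gives the matches where above 1. GATA squares lie at Jak1, Jak2, Lyn and Ptpn6 above the line, KLF, SP1 and NFY squares mostly below it.

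Other genes of the pathway were described with the same rule. Of 47 such genes, 34 had the same promoter region in both replicates and 8 had none in either. This is 72.3% of them with a promoter region, against 38.7% of all protein-coding genes. The 34 promoter regions had a median mean percentile of 60.2, below the median of 72.7 over all genes with a promoter region. All 5 genes of the ligand and receptor group had such a region, as did 10 of 11 feedback regulators and 5 of 6 genes of lipid signalling. For Epo, in that group, it was chr5:137533196-137533939, counted because a start of any annotated Epo transcript lay within 1000 bp of it. Its distance from the main Epo start was not examined, so it is not shown to be the main promoter of the hormone gene. The highest mean percentiles were those of Ptpn1, a phosphatase that acts on JAK2 (96.7), Pik3ca, a catalytic subunit of phosphoinositide 3-kinase (96.1), Cblb, a ubiquitin ligase (93.1), and Stat3 (88.1). Adaptor genes had a region in 6 of 9, transcription factor genes in 3 of 4 and targets of erythropoietin in 3 of 5.

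Among the Src family and its regulator Csk, 2 of 7 genes or 28.6% had such a region, a share that with so few genes is not set apart from the 38.7% of all protein-coding genes. Lyn itself is not in this count. The genes with no promoter region in either replicate included 4 of this family, Src, Yes1, Fgr and Blk, while Fyn and Lck had a region in both. The other 4 genes without a promoter region were Ptprc, which encodes the leukocyte phosphatase CD45, the adaptor gene Sh2b2, the phospholipase gene Plcg2 and Erfe, which encodes the hormone erythroferrone. A last 5 genes, Stat5b, Gab1, Gab2, Csk and Pim1, had a promoter region in 1 replicate.

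**Figure D5:**
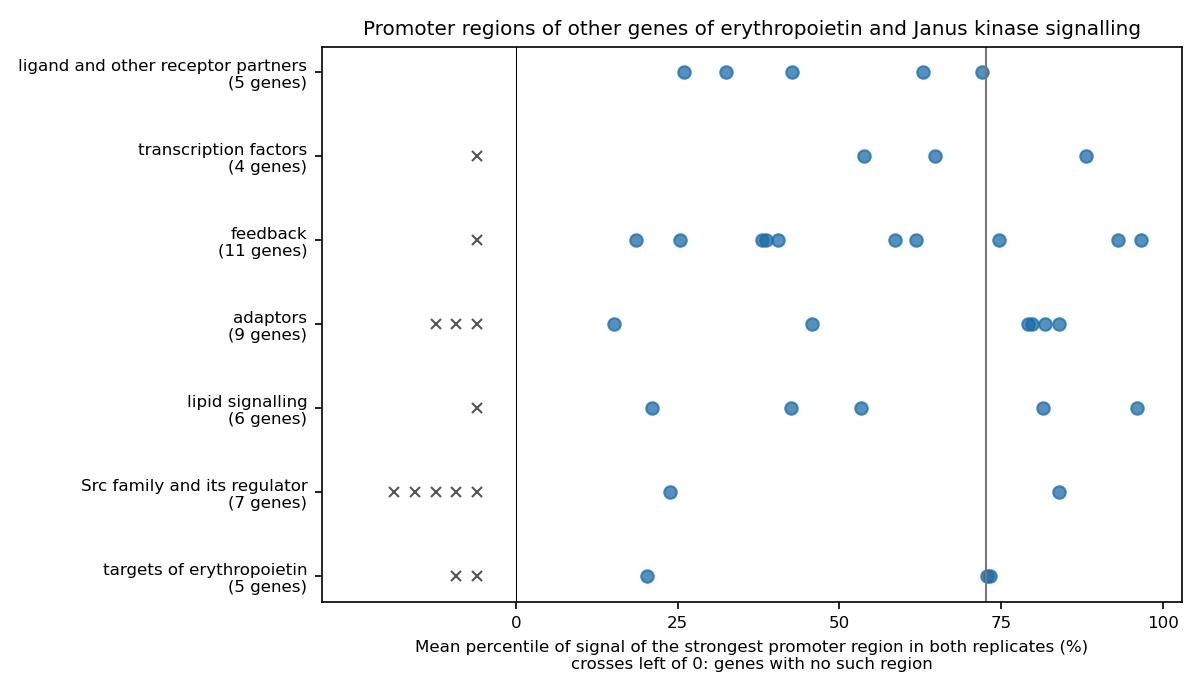
Mean percentile of signal (x axis) of the strongest promoter region in both replicates for 47 other genes of the pathway, by role (y axis). Each point is 1 gene, crosses left of 0 are genes with no such region, and the grey line is the median of 72.7 over all genes with a promoter region. The Src family row has 5 crosses and 2 points.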

How the data were processed

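ATAC-seq of 2 replicates of G1E cells was analysed from peak lists that the authors deposited on mm10. Which aligner and peak caller were used, and in which versions, is not given in the sources used here. The deposited signal value of a peak is not scaled between libraries and only ranks regions within a list. The −log10 p value of each peak, and in the ranked lists the −log10 of the IDR, were also deposited by the authors, and the latter was converted to the IDR printed.

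From the thresholded list of each replicate, overlapping or touching peaks were merged and kept the values of the strongest (26083 and 27810 peaks). Lenient (pseudoreplicated) and ranked lists of each replicate, and the conservative and replicated lists of both together, served to check start sites. A further 5 lists were not used. Start sites, exons and introns came from GENCODE M21, and promoter regions were those within 1000 bp of a start of any transcript of the gene. A promoter region in both replicates is a region of each, overlapping and within that window. Windows for motifs reached 100 bp to either side of the summit of the replicate with the higher percentile. Sequence is GRCm38.p6 (RefSeq), trimmed to hold at most 30 bases of untranslated exon in a row. Overlap, merging and motif matching were tested on simulated data, with Python 3.11.15, numpy 2.4.6 and pysam 0.24.0.

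The genes, the pathway and marker lists and the motifs were chosen with earlier results of these data known. All regions in both replicates were named for the 8 genes. For the pathway, the rule named the 4 highest promoters and every gene with none, and 1 gene of that list is not reported here. Col1a1, Gata2, Epo, Fyn, Lck, Csk, Stat5b, Gab1, Gab2 and Pim1 were named after their values were seen. Sequences were printed for the strongest regions outside start sites of other genes, for some further windows with matches and for the starts of Jak2 and Jak3. Alternatives were other lists, thresholds, windows, overlaps and summits.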

Additional observations from a re-analysis of the deposited data

How the results depend on the processing

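The count of 6 genes with a promoter region in both replicates ranged from 5 to 7. It was 5 with a reciprocal overlap of 50% (without Lyn), with the stronger 50% of regions (without Sh2b3) and with the outermost start only (without Ptpn6), and 7 with a window of 2000 bp, which reached the region upstream of Jak2. The 38 regions in both replicates became 20 with the stronger 50% of regions, 13 within 1 kb of the gene bodies and 24 within 20 kb. They rose to 57 with the lenient lists and to 55 within 100 kb. The count of 11 regions with a GATA match became 23 when whole regions, which are mostly wider than the windows, were searched. The share over all regions was not computed for whole regions. The count of 34 pathway genes became 18 with the stronger 50% of regions. The share of all protein-coding genes was not computed at that setting, so the 18 cannot be set beside the 38.7% above. The counts of single genes moved with these windows and lists, Epor from 7 to between 2 and 9 and Jak2 from 4 to between 1 and 8. Promoter signals were the same with unmerged summits and lenient lists, but this could not have come out otherwise. A merged region keeps the signal of its strongest peak, and the lenient lists held the same promoter peaks with the same values. It therefore says nothing about how stable these signals are. No paired analysis was possible because there is 1 group. The unknown depth and 2 replicates limit each statement to what the lists hold.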
